A study of Mus musculus with 33 samples.

Results

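The CXCR3 chemokine axis was followed here as 4 genes, namely the ligands Cxcl9, Cxcl10 and Cxcl11 and their receptor Cxcr3. They are the 4 rows carrying these symbols among the 56414 gene rows of the deposited table. Tumour-free C57Bl/6 mice either drank water containing nicotinamide (NAM, a form of vitamin B3) at 0.5% for 1, 3 or 14 days, or were left untreated. Polyadenylated RNA was then sequenced in 33 libraries. The 20 libraries labelled spleen comprise 5 from untreated mice and 5 each after 1, 3 and 14 days of NAM. The 13 libraries labelled lymph node comprise 3 from untreated mice, 2 after 1 day, 4 after 3 days and 4 after 14 days. No genotype, transgene or other agent differs between the groups, and age and sex are not used here. Nothing in the labels says that replicates come from separate animals, so the p-values measure the spread between these samples, which may be technical.

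CXCL9, CXCL10 and CXCL11 are small secreted proteins that share a single receptor. CXCR3 is a G protein-coupled receptor carried mainly by activated and memory T cells, by natural killer cells and by some dendritic cells, and it guides them towards sources of the ligands. The ligands are known as interferon-induced genes. Cxcl9 depends mostly on interferon gamma, whereas Cxcl10 also answers to type I interferon and NF-kB. In lymphoid organs the ligands are produced by myeloid and stromal cells, and they position CXCR3-bearing T cells within the tissue. C57BL/6 mice are known to carry a disrupted Cxcl11 gene that does not yield the protein. As these are bulk samples, fewer cells of a type and less RNA per cell cannot be told apart in any value given here.

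The tissue labels went against tissue markers in 33 of 33 libraries. A normalised count is the number of reads of a gene divided by the size factor of its library. Glycam1, a mucin made by the high endothelial venules of lymph nodes, had 108170 to 214210 normalised counts in libraries labelled spleen and 1.59 to 12.4 in libraries labelled lymph node. Spic, which red pulp macrophages of the spleen need, had 774 to 1295 with the former label and 6117 to 10491 with the latter. Tlx1, which is required for the spleen to form, had 0 to 4.07 and 351 to 573. The groups are therefore called by their label only, and no tissue is assigned. All libraries held lymphoid transcripts, with Ptprc (CD45) between 23658 and 39116 normalised counts. Reads per library numbered 18325061 to 54830743 (spleen label) and 30424968 to 46733974 (lymph node label). The spleen-labelled group at 3 days was deepest, with at least 43632016 reads per library. The 2 labels were scaled separately, so levels set across labels carry that limit.

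The 3 ligand genes lie next to each other on the minus strand of chromosome 5 of mm10. Cxcl9 is at chr5:92321331-92328117, Cxcl10 at chr5:92346641-92348890 and Cxcl11 at chr5:92359544-92365486. Cxcr3 is at chrX:101731532-101734147, also on the minus strand. The annotation calls Cxcl9, Cxcl10 and Cxcr3 protein coding, and Cxcl11 a polymorphic pseudogene in GENCODE and a transcribed pseudogene in RefSeq. Cxcl10 lies inside Art3, an ADP-ribosyltransferase gene of the opposite strand, and 133 of the 2252 exonic bases of Cxcl10 overlap Art3 exons. The sources used here do not say whether reads were counted by strand, so reads from these 133 bases cannot be assigned to either gene.

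The 250 bases before the start of Cxcl9, Cxcl10 and Cxcr3 are shown because Cxcl10 rose at 1 day in spleen-labelled libraries, where most type I interferon targets rose too, while Cxcl9 passed the limma test in no comparison of groups. The sequences are those of RefSeq on GRCm38.p6, minus strand, read 5′ to 3′, for 3 of the 4 genes. The windows are chr5:92328080-92328329 for Cxcl9, chr5:92348890-92349139 for Cxcl10 and chrX:101734148-101734397 for Cxcr3. Capitals mark letters that match 1 of 4 motifs on either strand.
Cxcl9: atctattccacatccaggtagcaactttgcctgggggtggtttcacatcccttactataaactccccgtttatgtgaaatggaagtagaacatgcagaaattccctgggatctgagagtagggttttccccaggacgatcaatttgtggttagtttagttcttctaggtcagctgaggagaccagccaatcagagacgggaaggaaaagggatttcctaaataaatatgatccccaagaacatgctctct
Cxcl10: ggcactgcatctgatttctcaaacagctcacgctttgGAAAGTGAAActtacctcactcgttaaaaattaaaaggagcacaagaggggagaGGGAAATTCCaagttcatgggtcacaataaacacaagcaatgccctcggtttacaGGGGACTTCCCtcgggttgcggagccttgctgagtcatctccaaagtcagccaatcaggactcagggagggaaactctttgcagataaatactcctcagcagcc
Cxcr3: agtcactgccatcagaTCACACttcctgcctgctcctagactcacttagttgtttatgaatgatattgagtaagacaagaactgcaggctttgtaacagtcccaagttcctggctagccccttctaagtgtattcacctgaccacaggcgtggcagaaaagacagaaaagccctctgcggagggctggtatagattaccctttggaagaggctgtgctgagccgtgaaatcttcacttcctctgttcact

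The motifs were the core of the interferon-stimulated response element (ISRE, searched as GAAA, any 2 bases, GAAA), the interferon gamma-activated site (GAS, TTCNNNGAA), the NF-kB consensus and the T-box half-site (GTGTGA). The Cxcl10 window held the ISRE core at bases 213 to 204 before the start. It also held the NF-kB consensus at bases 159 to 150, and 3 overlapping matches, counting both strands, between bases 104 and 94. The Cxcl9 window held none of the 4, and the Cxcr3 window held the T-box half-site, on the opposite strand, at bases 234 to 229. Over 32851 promoter windows of the same length, 2.98% held the ISRE core, 7.02% the GAS, 7.25% the NF-kB consensus and 12.3% the T-box half-site. A match describes letters only, and its absence says nothing about a factor.

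Of the 3 genes tested, Cxcl10 passed with limma and Cxcl9 and Cxcr3 did not. In the libraries labelled spleen Cxcl10 rose after 1 day of NAM, and in the libraries labelled lymph node it fell from 3 to 14 days. These were the only tests of Cxcl9, Cxcl10 and Cxcr3 that passed an adjusted p under 0.05 among the 6 comparisons of groups within each label (limma on log2 of the normalised count plus 1, adjusted by the Benjamini-Hochberg method over all genes tested).

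**Figure D1:**
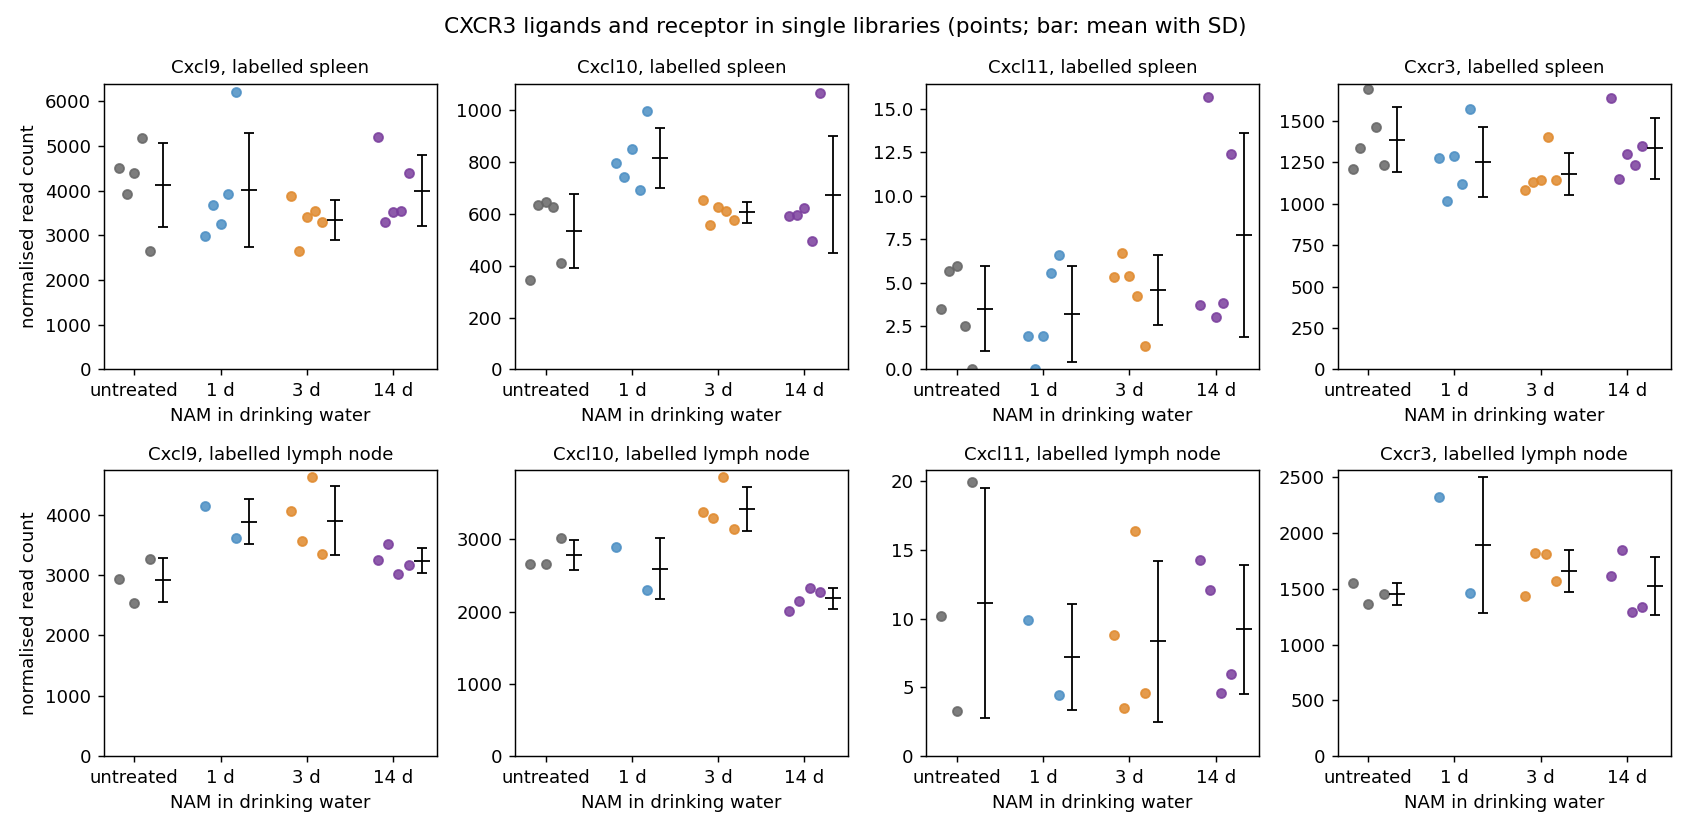
Normalised read counts of the 4 genes (vertical axes, starting at 0) in single libraries, by days of NAM (horizontal axes), for the libraries labelled spleen (upper row) and lymph node (lower row), with the mean and SD of each group to the right of its points. Cxcl10 in spleen-labelled libraries lies between 692 and 995 at 1 day, above the untreated libraries at 345 to 645, and in lymph node-labelled libraries at 3141 to 3858 at 3 days and 2000 to 2327 at 14 days.

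In the spleen-labelled set Cxcl10 stood at 345, 631, 645, 626 and 411 normalised counts in the 5 untreated libraries. After 1 day of NAM it stood at 793, 741, 848, 692 and 995. Every 1 day library was above every untreated library, although 3 of the untreated libraries came close to the lowest treated value. The means were 814 ± 117 (SD, n = 5) at 1 day and 532 ± 143 (SD, n = 5) untreated. The log2 fold change was 0.65 (SE 0.18, limma adjusted p = 0.0215). Among all genes tested in this comparison, 8.56% rose by the same rule and 6.42% were higher in every treated library. The call held in 11 of 11 other ways of fitting, edgeR and DESeq2 among them, with adjusted p from 0.0108 to 0.0386. It was lost when a single library was left out in 3 of 10 cases. Without untreated replicate 1 the log2 fold change was 0.50 (limma adjusted p = 0.0641), without untreated replicate 5 it was 0.57 (adjusted p = 0.0585), and without 1 day replicate 5 it was 0.57 (adjusted p = 0.0522).

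At 3 days spleen-labelled libraries held Cxcl10 at 653, 555, 626, 610 and 576 normalised counts. Every 3 day library lay below every 1 day library, a pattern shared by 0.504% of all genes in that direction. The log2 fold change from 1 to 3 days was -0.42 (SE 0.18), which did not pass after adjustment (unadjusted p = 0.0342, limma adjusted p = 0.669). Of all genes, 0.00548% were called in that comparison. The mean of 604 ± 39 (SD, n = 5) at 3 days was not past the threshold against untreated (log2 fold change 0.23, limma adjusted p = 0.514, 5.55% of all genes called).

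At 14 days 4 of the 5 spleen-labelled libraries held 589, 596, 623 and 492.6 normalised counts of Cxcl10, and replicate 5 held 1064. That library had the highest Cxcl10 of the 20. It also had 1071 counts of Isg15, an interferon-induced ubiquitin-like protein, against 513 to 698 in the other 14 day libraries and 1097 to 1434 at 1 day. Isg15 was the gene most like Cxcl10 over these 20 libraries, this one included (Pearson's r = 0.82), so it gives no separate support. The log2 fold change of Cxcl10 against untreated was 0.33 (SE 0.18, unadjusted p = 0.0873, limma adjusted p = 1). Without replicate 5 it was 0.15, again short of the threshold. Between 1 and 14 days it was -0.32 (SE 0.18, limma adjusted p = 0.299, 10.6% of genes called) and without replicate 5 -0.49 (adjusted p = 0.0591), and between 3 and 14 days 0.10 (SE 0.18, limma adjusted p = 0.846, 1.05% of genes called). No gene of the 18243 passed against untreated with limma (0% called, and 510 at an unadjusted p under 0.05), 0 passed with edgeR and 1 with DESeq2.

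Other measures are given beside the 1 day result. The 8 adipocyte markers, all detected in every spleen-labelled library, summed to 130461 to 556662 counts at 1 day and to 39194 to 213482 in untreated libraries, and 1 of the 8 passed the test (12.5%, against 16.6% of all genes called). With the mean level of those markers as a covariate the log2 fold change of Cxcl10 was 0.59 (limma adjusted p = 0.0362). Art3, which shares 133 bases with Cxcl10, stood at 802 to 2659 counts at 1 day and 355 to 1181 untreated (log2 fold change 0.70, limma adjusted p = 0.274), and its part in the Cxcl10 counts was not tested. The second principal component of the spleen-labelled libraries, with 13.6% of the variance, placed all 1 day libraries and 4 of the 5 at 3 days on one side of 0 and all untreated and 14 day libraries on the other. The 3 day libraries on the 1 day side scored 0.112 to 0.218 and the 1 day libraries 0.146 to 0.332, so the scores overlapped. The part of this component in the Cxcl10 value was not tested.

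The course of Cxcl10 in lymph node-labelled libraries is given next. Its difference from the spleen label, tested below, passed at no duration with limma. Untreated libraries held 2661, 2650 and 3016 normalised counts, and the 1 day libraries 2896 and 2293. At 3 days the 4 libraries held 3381, 3289, 3858 and 3141, and at 14 days 2000, 2139, 2327 and 2273. Every 3 day library lay above all others with this label, and every 14 day library lay below all untreated ones. From 3 to 14 days the mean went from 3417 ± 310 (SD, n = 4) to 2185 ± 146 (SD, n = 4). The log2 fold change was -0.64 (SE 0.083, limma adjusted p = 0.0112). Cxcl10 was 1 of 2 genes called in this comparison, or 0.011% of those tested, and groups did not overlap in the lower direction for 1.75% of genes. The other was Elane, the neutrophil elastase (log2 fold change -1.64, limma adjusted p = 0.0371), which is named here after its value was seen.

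The fall from 3 to 14 days was past the threshold in 10 of 11 other fits. It was lost in 3 of 8 fits without a single library, with log2 fold changes of -0.58 without 3 day replicate 3 (limma adjusted p = 0.0666), -0.63 without 14 day replicate 2 (adjusted p = 0.0620) and -0.65 without 3 day replicate 1 (adjusted p = 0.0571). The erythroid markers are given beside it. The 5 measured erythroid markers were detected in every one of these libraries and summed to 19172 to 30986 counts untreated, 2335 to 11812 at 3 days and 9002 to 13443 at 14 days. From 3 to 14 days 0 of the 5 passed with limma (3 at an unadjusted p under 0.05, as 5.84% of all genes), and the groups overlapped. With their mean level as a covariate the log2 fold change of Cxcl10 was -0.65, with an adjusted p of 0.158 by limma, and 0 genes of the table passed in that fit.

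Untreated lymph node-labelled libraries lay between those extremes. Against untreated, Cxcl10 had a log2 fold change of 0.30 (SE 0.090, limma adjusted p = 0.129) at 3 days and -0.34 (SE 0.090, limma adjusted p = 0.0891) at 14 days. Groups did not overlap in these directions for 8.09% and 6.02% of all genes, and 1.24% and 0.791% of genes were called. DESeq2 placed both past the threshold, with adjusted p of 0.0492 and 0.0201. All 5 erythroid markers were lower in every 3 and 14 day library than in every untreated one. Over 11 other fits of Cxcl10, DESeq2 included, 2 passed for each comparison, and the highest adjusted p of these fits was 0.997 and 0.729. At 1 day the log2 fold change was -0.10 (SE 0.11, limma adjusted p = 0.702, 1.21% of genes called). From 1 to 3 days it was 0.40 (SE 0.10, limma adjusted p = 0.141, 0.357% of genes called), again with no overlap, as for 6.52% of genes in that direction. From 1 to 14 days it was -0.24 (SE 0.10, limma adjusted p = 0.324, 0.401% of genes called).

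**Figure D2:**
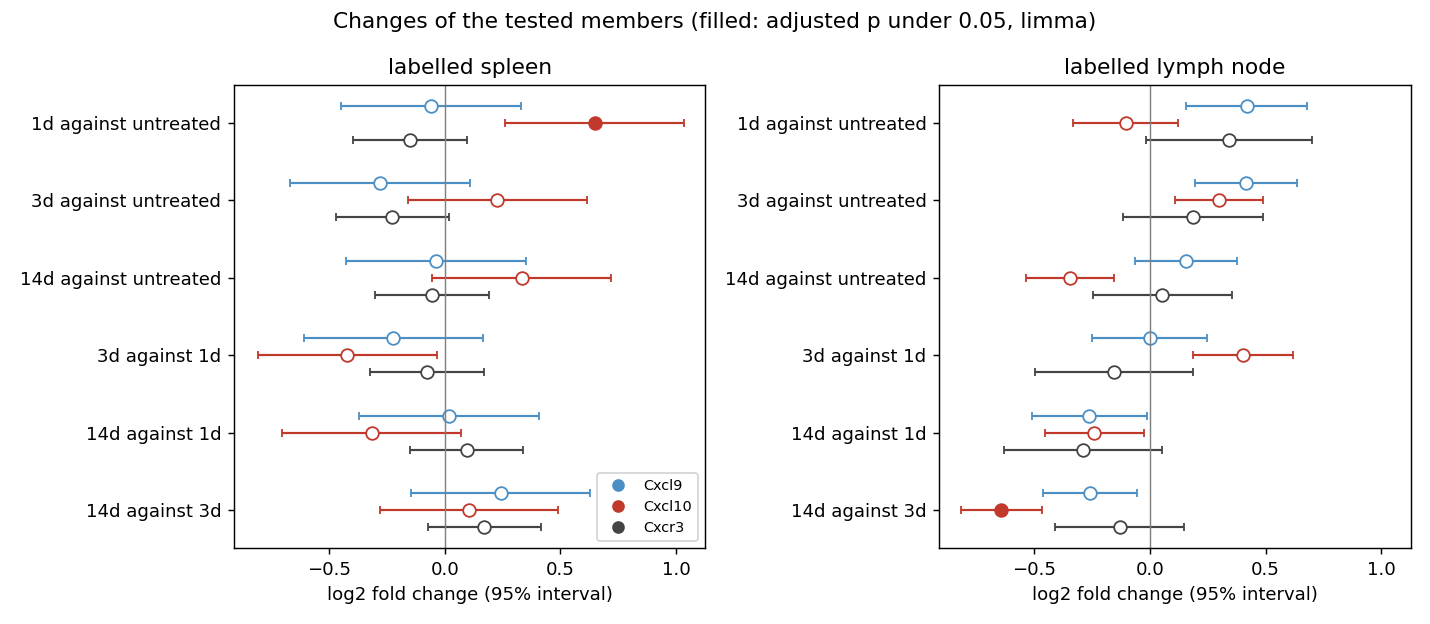
Log2 fold changes of Cxcl9, Cxcl10 and Cxcr3 (horizontal axes) with 95% intervals for 6 comparisons of groups (vertical axes) within the libraries labelled spleen (left) and lymph node (right). Filled points passed an adjusted p under 0.05, and these are Cxcl10 at 0.65 for 1 day against untreated (left) and at -0.64 for 14 against 3 days (right).

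Cxcl9, the ligand most tied to interferon gamma, had no change past the threshold with limma. Spleen-labelled untreated libraries held 4516, 3930, 4406, 5173 and 2658 normalised counts. The counts were 2997, 3683, 3264, 3932 and 6217 after 1 day, 3872, 2650, 3400, 3546 and 3303 after 3 days, and 5204, 3307, 3527, 3537 and 4397 after 14 days. All groups overlapped. Its log2 fold changes against untreated were -0.06 at 1 day (95% interval -0.45 to 0.33), -0.28 at 3 days (-0.67 to 0.11) and -0.04 at 14 days (-0.43 to 0.35), with limma adjusted p of 0.865, 0.412 and 1.

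With the lymph node label, Cxcl9 held 2943, 2540 and 3261 normalised counts in untreated libraries, 4149 and 3618 at 1 day, 4055, 3570, 4630 and 3344 at 3 days, and 3245, 3512, 3021 and 3163 at 14 days. Every library at 1 and 3 days was above every untreated library, as for 17.1% and 8.09% of all genes in that direction. The log2 fold change was 0.42 at 1 day (SE 0.12, limma adjusted p = 0.116) and 0.42 at 3 days (SE 0.10, limma adjusted p = 0.0630). At 3 days the result crossed the threshold with DESeq2 (adjusted p = 0.00767) and with array weights (adjusted p = 0.0252), which are among 3 of 11 other fits past it. It was not past it with edgeR. At 14 days the log2 fold change was 0.16 (SE 0.10, limma adjusted p = 0.608), and from 3 to 14 days -0.26 (SE 0.096, limma adjusted p = 0.743). From 1 to 14 days it was -0.26 (SE 0.12, limma adjusted p = 0.360), with every 14 day library below both 1 day libraries, as for 10.5% of genes.

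Cxcl11 was close to silent in all libraries. Spleen-labelled untreated libraries held 3.46, 5.65, 5.93, 2.49 and 0 normalised counts. Those at 1 day held 1.92, 0, 1.92, 5.56 and 6.57, those at 3 days 5.33, 6.72, 5.38, 4.21 and 1.36, and those at 14 days 3.74, 15.7, 3.03, 3.83 and 12.4. At most 10 reads came from any of these libraries. Lymph node-labelled libraries held 3.31 to 19.9 counts, that is 3 to 18 reads, and the groups overlapped. The means of 4.76 and 9.08 were under the minimum mean of 10 for testing. Without that minimum none of its 6 comparisons passed with either label in limma, 0 had an unadjusted p under 0.05, and the largest change was 1.12, from 1 to 14 days in the spleen-labelled set (SE 0.62, adjusted p = 0.397). Changes of this gene were not detectable at this depth.

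Cxcr3, the receptor, passed in no comparison. Spleen-labelled libraries held 1207, 1337, 1691, 1463 and 1234 normalised counts when untreated. After 1 day they held 1273, 1017, 1288, 1117 and 1571, after 3 days 1086, 1134, 1143, 1402 and 1141, and after 14 days 1637, 1152, 1298, 1233 and 1349. Its log2 fold changes against untreated were -0.15, -0.23 and -0.05 (SE 0.12 each), with limma adjusted p of 0.407, 0.271 and 1. Lymph node-labelled libraries held 1551, 1359 and 1451 when untreated, 2319 and 1459 after 1 day, 1437, 1822, 1809 and 1569 after 3 days, and 1616, 1844, 1292 and 1339 after 14 days. The groups overlapped with both labels. The log2 fold changes were 0.34 (SE 0.17), 0.19 (SE 0.14) and 0.05 (SE 0.14), with limma adjusted p of 0.359, 0.578 and 0.926. None of the 12 comparisons of Cxcr3 within a label had an unadjusted p under 0.05 with limma.

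The lymph node-labelled 1 day library with 2319 counts of Cxcr3 stands apart. Its 10 exocrine pancreas markers summed to 120738 counts, against 1093 in the other 1 day library and 1198 to 1270 in untreated libraries. Amy2a5 of that list was at 0 in every library, and 2 of the 10 were detected in all libraries with this label. Without this library the log2 fold change of Cxcr3 at 1 day against untreated went from 0.34 to 0.0077, and the 1 day group was left with a single library of 1459 counts. The log2 fold change from 1 to 14 days, which was -0.29 with it, was 0.05, and that from 1 to 3 days went from -0.16 to 0.18. The part of pancreatic RNA in these values was not tested.

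The order of the group means differed by gene and label. Spleen-labelled Cxcl10 ran from untreated (532) over 3 days (604) and 14 days (673) to 1 day (814). Of the neighbours in that order none differed past the threshold with limma, and the ends did. With the other label it ran from 14 days (2185) over 1 day (2594) and untreated (2775) to 3 days (3417), and again the ends were the only pair past the threshold with limma among its 6 comparisons. DESeq2 also placed 3 days against untreated, 14 days against untreated and 1 against 3 days past it. Cxcl9 in lymph node-labelled libraries ran from untreated (2914) over 14 days (3235) and 1 day (3883) to 3 days (3900), and in spleen-labelled ones from 3 days (3354) over 14 days (3994) and 1 day (4019) to untreated (4137). Cxcr3 ran from 1181 at 3 days over 1253 at 1 day and 1334 at 14 days to 1386 untreated (spleen label), and from 1454 untreated over 1523 at 14 days and 1659 at 3 days to 1889 at 1 day (lymph node label). For Cxcl9 and Cxcr3 neither neighbours nor ends differed past the threshold with limma. The ends of lymph node-labelled Cxcl9 did with DESeq2 (adjusted p = 0.00767).

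To compare genes, counts were divided by the length of each gene's exons in kilobases. Which parts of a gene were counted is not given for this table, and if only some exons were, these levels and their order would be others. In untreated spleen-labelled libraries the level was 1372 ± 311 (SD, n = 5) per kilobase for Cxcl9, 801 ± 114 for Cxcr3, 236 ± 63.3 for Cxcl10 and 0.924 ± 0.643 for Cxcl11. In untreated lymph node-labelled libraries it was 1232 ± 92.4 (SD, n = 3) for Cxcl10, 966 ± 120 for Cxcl9, 840 ± 55.7 for Cxcr3 and 2.93 ± 2.20 for Cxcl11. Cxcl9 was the higher ligand in every group with the spleen label. With the lymph node label the order changed between groups. Cxcl10 had the higher mean untreated and at 3 days (1517 ± 138 against 1293 ± 189 for Cxcl9, SD, n = 4), and Cxcl9 at 1 day (1288 against 1152, n = 2) and at 14 days (1073 ± 68.4 against 970 ± 65.0, SD, n = 4). Taken as ranges over libraries, the 2 ligands overlapped at 1, 3 and 14 days and did not overlap untreated. This leaves out that both were measured in the same library, and the order within each library is not given here. Over all 13 lymph node-labelled libraries Cxcl10 ranged from 888 to 1713 and Cxcl9 from 842 to 1535 counts per kilobase, so the 2 ligands overlapped. Over all 20 spleen-labelled libraries the highest Cxcl10 (472) was below the lowest Cxcl9 (879).

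The balance within each library was taken as a difference of log2(normalised count + 1), which hardly depends on the scaling between libraries. Cxcl10 against Cxcr3 in spleen-labelled libraries was between -1.81 and -1.08 in untreated libraries and between -0.69 and -0.46 at 1 day. The groups did not overlap, and the mean difference was 0.80 (exact two-sided permutation test, p = 0.00794, the smallest that 5 against 5 can give). Over the 24 balances compared, the adjusted p was 0.0952, so it did not pass. Cxcl10 against Cxcr3 moved by 0.45 at 3 days (exact permutation p = 0.0159, adjusted p = 0.0952) and by 0.39 at 14 days (exact permutation p = 0.127, adjusted p = 0.381). Cxcl10 against Cxcl9 moved by 0.71 at 1 day (exact permutation p = 0.0159, adjusted p = 0.0952) and by 0.51 at 3 days (exact permutation p = 0.00794, adjusted p = 0.0952). Cxcl9 against Cxcr3 moved by 0.09, -0.05 and 0.02 at 1, 3 and 14 days.

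In the lymph node-labelled set Cxcl10 against Cxcl9 was between -0.15 and 0.06 in untreated libraries and between -0.71 and -0.38 at 14 days. The mean difference was -0.50 (exact permutation p = 0.0286, the smallest for 4 against 3, adjusted p = 0.137). Cxcl10 against Cxcr3 moved by -0.45, 0.11 and -0.40 at 1, 3 and 14 days, with adjusted p of 0.343, 0.514 and 0.381 by the exact permutation test. Comparisons of 2 with 3 libraries cannot go below an exact p of 0.1. None of the 24 balances passed after adjustment.

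**Figure D3:**
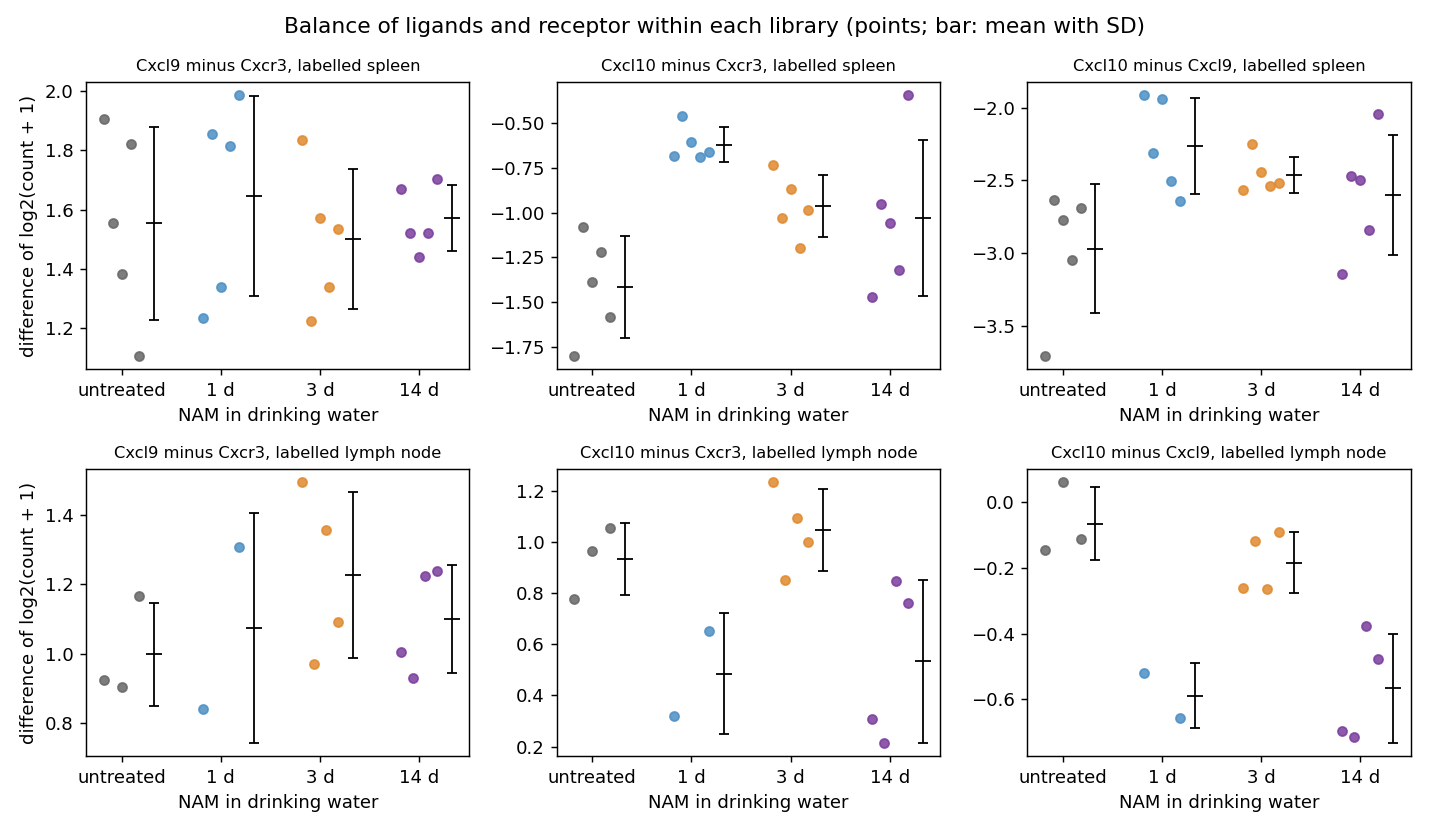
Differences of log2(normalised count + 1) between 2 genes of the same library (vertical axes) by days of NAM (horizontal axes), for the libraries labelled spleen (upper row) and lymph node (lower row). Points are libraries and the bar gives the mean and SD of a group. Cxcl10 minus Cxcr3 in spleen-labelled libraries went from between -1.81 and -1.08 untreated to between -0.69 and -0.46 at 1 day, while Cxcl9 minus Cxcr3 overlapped between all groups.

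The response of Cxcl10 differed in sign between the labels at 1 day, with log2 fold changes of 0.65 (spleen label) and -0.10 (lymph node label). The latter rests on 2 libraries at 1 day, and it was 0.064 without replicate 2 and -0.27 without replicate 1. The difference of 0.75 (95% interval 0.19 to 1.32) did not pass over the 17147 genes tested in both labels (limma interaction, unadjusted p = 0.0104, adjusted p = 0.142, 1.69% of genes called). At 14 days the difference was 0.68 (unadjusted p = 0.00991, adjusted p = 0.738, 0.14% of genes called). At 3 days Cxcl9 differed by -0.70 between the labels (unadjusted p = 0.0103, adjusted p = 0.195, 0.735% of genes called). None of Cxcl9, Cxcl10 and Cxcr3 passed the test of the difference at any of the 3 durations with limma. An unadjusted p under 0.05 was reached by Cxcl10 and Cxcr3 at 1 day, Cxcl9 and Cxcr3 at 3 days and Cxcl10 at 14 days. The share of all genes reaching it was not counted for these differences, so no excess is read from this. The difference for Cxcr3 at 1 day was -0.49, and -0.16 without lymph node-labelled 1 day replicate 1 (adjusted p = 0.817).

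The targets of type I interferon form the group in which Cxcl10 is usually counted. Of 19 such genes tested in spleen-labelled libraries, 16 rose at 1 day and 0 fell (84.2%, against 16.6% of all genes called in either direction and 8.56% called higher). The median log2 fold change was 0.68, and 0.01 over all genes. Ifit3, an RNA-binding antiviral protein, went from 1469 ± 440 to 3890 ± 374 normalised counts (SD, n = 5 each), with a log2 fold change of 1.45 (SE 0.20, limma adjusted p = 0.000306). Rsad2, which encodes the antiviral enzyme viperin, rose by 1.38 (SE 0.25, limma adjusted p = 0.00154), and Ifi44 by 1.27 (SE 0.17, limma adjusted p = 0.000306). At 3 and 14 days 0 of the 19 passed with limma, edgeR or DESeq2 (3 and 4 at an unadjusted limma p under 0.05, as 22% and 2.8% of all genes), with medians of 0.16 and 0.22.

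In lymph node-labelled libraries 0 of the 19 passed at 1 day with limma or edgeR, with a median of -0.26. DESeq2 called 1 of them and 540 genes in all, and 4 had an unadjusted limma p under 0.05, as 15% of all genes. The median of -0.26 rests on replicate 1, the library high in pancreas markers. Without it the median was 0.10, with 0 of 19 past an unadjusted p under 0.05, and without replicate 2 it was -0.65. At 3 days 1 of 19 fell (5.26%, against 1.24% of all genes), namely Rsad2 (-1.27), which was at -0.83 with the erythroid covariate (limma adjusted p = 0.997). All 5 erythroid markers separate these groups without overlap, and that fit called 0 genes of the table. A call lost in it therefore decides nothing about a gene. Of the 19, 5 had a log2 fold change above 0 and the median was -0.10. At 14 days 6 of 19 fell against untreated and 0 rose (31.6%, against 0.791% of all genes), with a median of -0.56. DESeq2 called 13 of the 19 there and 381 genes in all, and edgeR 6 of the 19. All 5 erythroid markers were lower in every 14 day library than in every untreated one. With their mean level as a covariate 2 genes of the whole table were called with limma and 0 of the 19, of which 13 had an unadjusted p under 0.05, and the median was -0.59. Rsad2 fell by 1.57 (SE 0.22, limma adjusted p = 0.00290), Isg15 by 0.86 (SE 0.15, limma adjusted p = 0.0138) and Ifit3 by 0.81 (SE 0.17, limma adjusted p = 0.0360). Isg15 stood at 2267, 3017 and 3356 normalised counts untreated and at 1357, 1291, 1878 and 1814 at 14 days. From 3 to 14 days 19 of 19 had a log2 fold change below 0, with a median of -0.43, and 15 of 19 had every 14 day library below every 3 day library, as did 1.75% of all genes. None of the 19 passed the adjusted threshold there with limma or edgeR. With DESeq2 5 did, among 51 genes in all, and 16 had an unadjusted limma p under 0.05, as 5.84% of all genes. The difference between the labels in the response to NAM passed for 10 of the 19 at 1 day (1.69% of all genes), for 0 at 3 days (3 at an unadjusted p under 0.05, 0.735% of all genes called) and for 3 at 14 days (0.14% of all genes), by the limma interaction adjusted over 17147 genes. Without lymph node-labelled 1 day replicate 1 it passed for 0 of the 19 at 1 day (10 at an unadjusted p under 0.05, 0.338% of all genes called), and without replicate 2 for 11. The list was chosen with these results known, so its counts are not independent evidence of a direction.

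**Figure D4:**
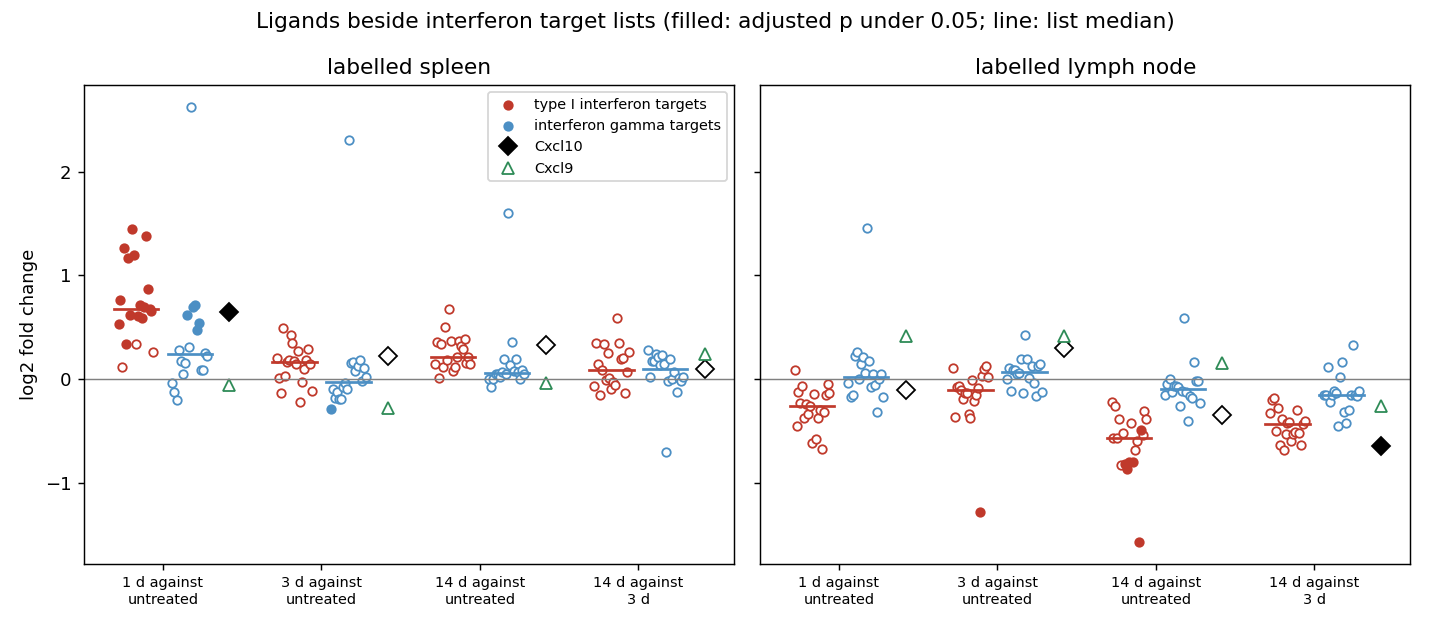
Log2 fold changes (vertical axis) of 19 type I interferon targets (red), 18 interferon gamma targets (blue), Cxcl10 (diamonds) and Cxcl9 (triangles) in 4 comparisons (horizontal axis) for the libraries labelled spleen (left) and lymph node (right). Filled symbols passed an adjusted p under 0.05 and lines are list medians. On the left 16 type I targets are filled above 0 at 1 day, on the right 6 are filled below 0 at 14 days, and the high open point at 2.62 at 1 day is Ido1 (adjusted p = 0.0926).

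Fewer interferon gamma targets passed. Of 18 tested in spleen-labelled libraries 5 rose at 1 day and 0 fell (27.8%, against 16.6% of all genes called in either direction and 8.56% called higher), with a median log2 fold change of 0.24. Iigp1 and Igtp, GTPases that act on intracellular pathogens, rose by 0.72 (SE 0.15, limma adjusted p = 0.00356) and 0.69 (SE 0.15, limma adjusted p = 0.00433), and Gbp6 rose by 0.62 (SE 0.14, limma adjusted p = 0.00521). At 3 days 1 of 18 fell (5.56%, against 5.55% of all genes called in either direction and 2.74% called lower), which is a single gene. At 14 days 0 passed with limma, edgeR or DESeq2 (1 at an unadjusted limma p under 0.05, as 2.8% of all genes). Among lymph node-labelled libraries 0 of the 18 passed against untreated at any duration with limma or edgeR. At 1, 3 and 14 days 3, 1 and 3 had an unadjusted limma p under 0.05 (15%, 14.8% and 11.8% of all genes). DESeq2 called 1, at 14 days, of 381 genes in all.

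Of the upstream signals, 25 of 26 listed genes were tested. Spleen-labelled libraries had 3 that rose and 2 that fell at 1 day (20% of 25), a share close to the 16.6% of all genes called. Irf7, a transcription factor of type I interferon responses, rose by 0.62 (SE 0.16, limma adjusted p = 0.0140), Ifngr1, a chain of the interferon gamma receptor, rose by 0.48 (SE 0.076, limma adjusted p = 0.000739), and Rela, a subunit of NF-kB, fell by 0.44 (SE 0.10, limma adjusted p = 0.00665). Ifng itself had a log2 fold change of 0.57 (SE 0.37, limma adjusted p = 0.309). At 3 days Ifngr1 (0.36) passed higher and Irf8 (-0.33) and Rela (-0.36) lower with this label, where 5.55% of all genes were called. Lymph node-labelled libraries had 2 of 25 that fell at 14 days (8%, against 0.791% of all genes called), among them Irf7 by 0.62 (SE 0.11, limma adjusted p = 0.0138). With the erythroid covariate 2 genes of the whole table and 0 of the 25 were called with limma (5 at an unadjusted p under 0.05), and Irf7 had a log2 fold change of -0.65 (adjusted p = 0.432). At 1 and 3 days 0 of 25 passed there with limma, edgeR or DESeq2 (8 and 5 at an unadjusted limma p under 0.05, as 15% and 14.8% of all genes).

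Markers of the cells that carry the receptor and of those that produce the ligands were also counted. Of 23 genes of CXCR3-bearing lymphocytes 1 rose at 1 day in spleen-labelled libraries (4.35%, against 16.6% of all genes called), Klrk1, the NKG2D receptor of natural killer cells (log2 fold change 0.53, SE 0.14, limma adjusted p = 0.0170), and 7 rose with the adipocyte covariate (30.4%, against 21.1% of all genes called in that fit). None passed with limma in the other comparisons with untreated (0 with edgeR and at most 1 with DESeq2). In each, 2 to 5 had an unadjusted p under 0.05, as had 2.8% to 22% of all genes. Of 14 genes of myeloid cells 0 passed at 1 day in spleen-labelled libraries with limma or edgeR and 2 with DESeq2. An unadjusted limma p under 0.05 was found for 4, and for 30.9% of all genes. With the adipocyte covariate 4 of the 14 passed there (28.6%, against 21.1% of all genes called in that fit). At 3 days 2 of the 14 fell (14.3%, against 5.55% of all genes called). These were Clec9a and Xcr1, both marking cross-presenting dendritic cells, which fell by 0.47 (SE 0.13, limma adjusted p = 0.0353) and 0.44 (SE 0.11, limma adjusted p = 0.0249). With the lymph node label 1 of 14 passed at 1 day and 1 at 3 days (7.14% each, against 1.21% and 1.24% of all genes). Cd14 rose by 0.73 at 1 day (SE 0.12, limma adjusted p = 0.00582) and Ly6c2 by 0.39 at 3 days (SE 0.086, limma adjusted p = 0.0369). All 5 erythroid markers fell at 3 days with this label, and with their mean level as a covariate 0 genes of the table were called at 3 days with limma. Ly6c2 then had a log2 fold change of 0.37 (adjusted p = 0.997).

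Of 10 genes that modify chemokine signals 1 passed at 1 day in spleen-labelled libraries (10%, against 16.6% of all genes called). Arrb2, an arrestin that uncouples receptors, fell by 0.29 (SE 0.094, limma adjusted p = 0.0368), a call lost with the adipocyte covariate (-0.15, adjusted p = 0.114). With the lymph node label 1 of the 10 passed at 1 day and 1 at 3 days (10% each, against 1.21% and 1.24% of all genes). Rgs1, a brake on G protein signalling, rose by 1.09 at 1 day (SE 0.18, limma adjusted p = 0.00582), and Arrb1 fell by 0.60 at 3 days (SE 0.11, limma adjusted p = 0.0104), a call lost with the erythroid covariate (-0.40, adjusted p = 0.997). In that fit 0 genes of the table were called at 3 days, so the loss decides nothing about Arrb1. Dpp4, the protease that trims CXCR3 ligands, had log2 fold changes of -0.05 and 0.08 at 1 day with the spleen and the lymph node label (limma adjusted p of 0.778 and 0.759).

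Of 13 other CXC chemokines and receptors tested in spleen-labelled libraries 3 passed at 1 day (23.1%, against 16.6% of all genes called). At 3 days 0 of the 13 passed with limma or edgeR, 1 with DESeq2 and 2 at an unadjusted limma p under 0.05, as 22% of all genes. At 1 day Cxcl13, which draws B cells into follicles, fell by 0.62 (SE 0.17, limma adjusted p = 0.0155), and its receptor Cxcr5 fell by 0.40 (SE 0.13, limma adjusted p = 0.0365). With the adipocyte covariate Cxcr5 was at -0.22 (adjusted p = 0.112) and its call was lost. Cxcl15, a chemokine known from epithelia, rose by 2.63 (SE 0.82, limma adjusted p = 0.0341), and the 5 epithelial markers summed to 2702 to 14943 counts at 1 day and 924 to 6518 untreated, with 0 of 5 past the limma test, 0 of them at an unadjusted p under 0.05, and all 5 detected in every library. Their part in the value of Cxcl15 was not tested. With the adipocyte covariate its log2 fold change was 1.27, short of the threshold (adjusted p = 0.0811). In lymph node-labelled libraries 2 of 11 rose at 1 day (18.2%, against 1.21% of all genes called). Cxcr4, the CXCL12 receptor, rose by 1.56 (SE 0.15, limma adjusted p = 7.12e-05) and Cxcl16, the ligand of CXCR6, by 0.41 (SE 0.098, limma adjusted p = 0.0498). Cxcr4 also passed at 3 and 14 days with limma (log2 fold changes 0.76 and 0.88), where 1.24% and 0.791% of all genes were called. With the erythroid covariate its limma adjusted p was 0.941 and 0.259, in fits that called 0 and 2 genes of the table. Of 10 stromal genes 2 fell at 1 day with the spleen label (20%, against 16.6% of all genes), Cxcl13 and Madcam1 (-0.69, SE 0.19, limma adjusted p = 0.0177), the latter at -0.47 with the adipocyte covariate (adjusted p = 0.0533). With that covariate 5 of the 10 passed, in a fit that also called a larger share of all genes, given in the last section. Of the 10, 1 passed at 3 days with each label (10%, against 5.55% of all genes with the spleen label and 1.24% with the lymph node label). Madcam1, an adhesion molecule of venules, fell by 0.89 at 3 days in spleen-labelled libraries (SE 0.19, limma adjusted p = 0.0133), and Ccl19, a chemokine of the T cell zone, rose by 0.50 at 3 days with the other label (SE 0.090, limma adjusted p = 0.00918), which was 0.27 with the erythroid covariate (adjusted p = 0.997). That fit called 0 genes of the table at 3 days. Cxcl16 at 1 day had an adjusted p of 0.102 with that covariate. The lymph node-labelled 1 day calls rest on 2 libraries. Without replicate 1, which was high in pancreas markers, Cxcr4 (1.65, adjusted p = 0.00499) and Rgs1 (1.30, adjusted p = 0.0304) were still past the threshold, and Cd14 (0.77, adjusted p = 0.0614) and Cxcl16 (0.36, adjusted p = 0.247) were not. Without replicate 2 Cxcr4 passed (adjusted p = 0.00420) and Rgs1, Cd14 and Cxcl16 did not.

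The genes that varied most like each member across libraries were ranked by Pearson's r of log2(normalised count + 1), as a description over libraries that share groups and scaling. Over the 20 spleen-labelled libraries Cxcl10 was most like Isg15 (r = 0.82), Oas1a (0.81), Cmpk2 (0.80), Ifit3 (0.80) and Ifit1 (0.80). Cxcl9 was most like Tbx21 (0.80), which encodes the T helper 1 and natural killer cell factor T-bet, Xcl1 (0.79), Upf3a (0.77), Socs1 (0.75) and Acbd6 (0.75). Cxcr3 was most like Dbnl (0.87), Tbx21 (0.84), Faap24 (0.84), the joint row of Il10ra and Mir7086 (0.83) and E130012A19Rik (0.83). Tbx21 was therefore in the first 5 of both Cxcl9 and Cxcr3.

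Over the 13 lymph node-labelled libraries Cxcl10 was most like the joint row of H2-T10 and H2-T22 (0.85), Il27 (0.84), Fdps (0.84), Rnf114 (0.84) and Tcp11l1 (0.84). The first 5 for Cxcl9 included Crocc2 (0.92), 2210013O21Rik (0.92), Gm4841 (0.91) and Glipr1 (0.89). Cxcr3 was most like Hid1 (0.92), Dusp14 (0.90), Izumo1r (0.90), Tmem192 (0.89) and Sh2d2a (0.87). No gene was in the first 5 of the same member with both labels.

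**Figure D5:**
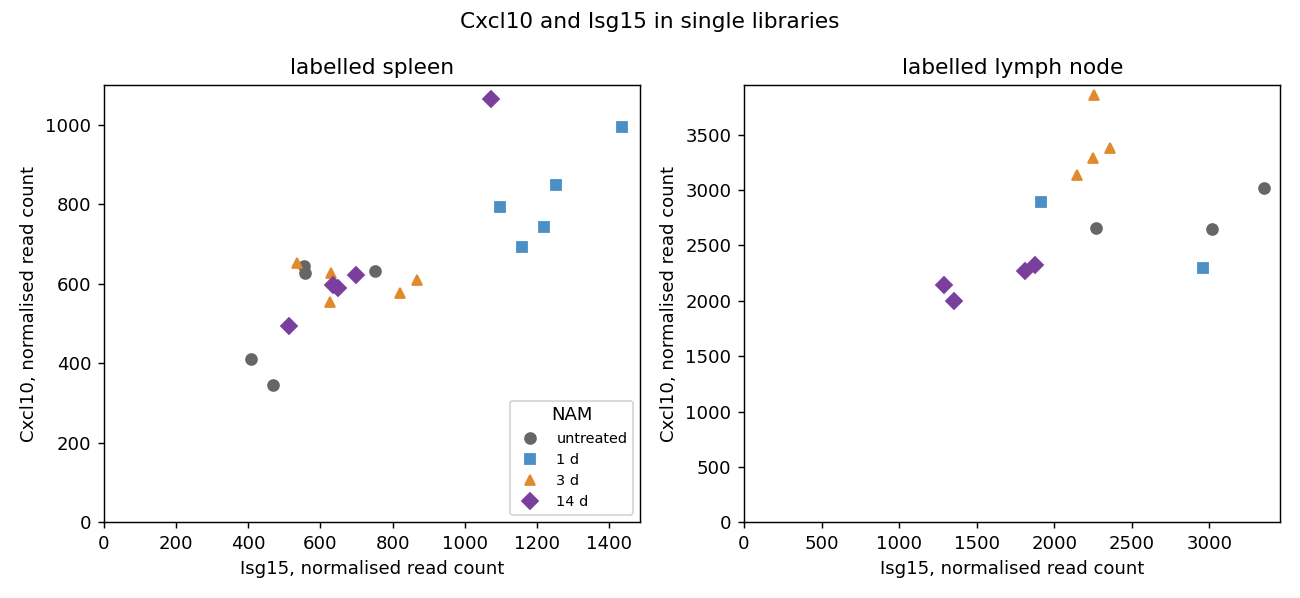
Cxcl10 (vertical axes) against Isg15 (horizontal axes), both in normalised read counts, in single libraries labelled spleen (left) and lymph node (right), with the symbol giving the days of NAM. On the left the 5 libraries at 1 day and replicate 5 at 14 days hold Isg15 of at least 1071 and Cxcl10 of at least 692, and on the right the 14 day libraries have the lowest Isg15 with Cxcl10 at 2000 to 2327.

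Between the members themselves, 12 relations across libraries were computed and none passed after adjustment. The closest was Cxcl9 with Cxcr3. In spleen-labelled libraries Pearson's r was 0.61 (permutation p = 0.00443, adjusted p = 0.0532) and Spearman's rho 0.48 (permutation p = 0.0333, adjusted p = 0.228) over 20 libraries. Leaving out the 2 libraries whose Cxcl9 was farthest from its median gave r of 0.42, and r was 0.56 for deviations from the group means. Among libraries above and below 0 on the second principal component it was 0.56 and 0.60. In lymph node-labelled libraries r was 0.62 (permutation p = 0.0253, adjusted p = 0.152) and rho 0.59 (permutation p = 0.0380, adjusted p = 0.228) over 13 libraries, 0.58 without the 2 farthest and 0.49 for deviations from the group means. Cxcl10 with Cxcr3 had r of 0.21 (permutation p = 0.376, adjusted p = 0.427) with the spleen label and 0.26 (permutation p = 0.391, adjusted p = 0.427) with the lymph node label.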

How the data were processed

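RNA-seq was measured in 33 libraries, grouped by sample title. The authors deposited 1 table of normalised read counts, a signal in which reads are divided by a DESeq2 size factor. Its header names mm10, and the submitters' processing notes name STAR 2.4.0, SAMtools, Picard, FastQC and DESeq2. Counting settings for this table are not given in the sources used here. Whole reads were recovered for 100.0% of values within 0.01, and recomputed size factors matched within the spleen label (ratios 0.9999 to 1.0001) but were 0.9621 to 0.9719 within the lymph node label, so tests were run within a label. Of 56 replicate pairs 0 were identical.

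Genes with a mean of at least 10 were tested on log2(normalised count + 1) with limma 3.58.1 (R 4.3.3, intensity trend, 4 groups in one fit, two-sided), over 18243 and 18215 genes, and, as alternatives, the recovered reads with edgeR 4.0.16 and DESeq2 1.42.0. Other alternatives were pseudocounts of 0.1 and 5, no minimum, TMM and quantile normalisation, array weights, a replicate block, the 2 groups alone, marker covariates, another call rule and leaving out each library. Fold changes on this scale understate low genes. Balances used exact permutation tests and relations 100000 permutations. The fits were tested on simulated data. Members and gene lists were chosen with earlier results of these data known. Named genes were the members, up to 3 called genes of largest change against untreated per list and label, and the 5 most like each member. Elane, Ido1, Ifng, Dpp4, Ptprc and Tlx1 were named after their values were seen. The marker Ahsp matched no row and Cxcl11 no promoter entry. A few results of single genes are not reported here.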

Additional observations from a re-analysis of the deposited data

Results flagged for a closer look

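Of 48 sets of 4 to 10 values, 2 held a library far from the others. About 1 in 20 sets would by chance alone, but 1 of these libraries was known beforehand, so the count is no test of chance. Replicate 5 of the spleen-labelled 14 day group had 1064 normalised counts of Cxcl10, against 492.6 to 623 in the rest of its group, and its high Cxcl10 was known beforehand. Without it the log2 fold change of Cxcl10 from 3 to 14 days went from 0.10 to -0.074. Replicate 4 of the spleen-labelled 3 day group had 1402 counts of Cxcr3, against 1086 to 1143 in the others.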

How the results depend on the processing

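Of 522 results recomputed under alternatives other than leaving out a library, 488 kept their direction and side of the threshold. Cxcl10 at 1 day in spleen-labelled libraries was called in 11 of 11. Its fall from 3 to 14 days in lymph node-labelled libraries was called in 10 of 11, the exception being the erythroid covariate (-0.65, limma adjusted p = 0.158), where 0 genes were called. Both covariates were chosen after seeing the data. In lymph node-labelled libraries array weights moved past the threshold Cxcl9 at 3 days (0.42, adjusted p = 0.0252), Cxcl10 at 3 days (0.32, adjusted p = 0.0425) and Cxcl10 at 14 days (-0.35, adjusted p = 0.0391). DESeq2 did the same with 0.42 (adjusted p = 0.00767), 0.30 (adjusted p = 0.0492) and -0.34 (adjusted p = 0.0201), and also for Cxcl10 from 1 to 3 days (0.40, adjusted p = 0.0253). The cause was not tested. The following changes turned sign, most of them close to 0. Spleen-labelled Cxcl9 from 1 to 14 days was -0.016 with edgeR, -0.0071 with DESeq2 and -0.038 with the adipocyte covariate, which also gave 0.039 at 1 day and 0.0016 at 14 days against untreated. Lymph node-labelled Cxcl9 from 1 to 3 days was 0.024 with quantile normalisation, 0.0066 with array weights, 0.0056 with edgeR, 0.010 with DESeq2 and 0.080 with the erythroid covariate, which also gave -0.14 and -0.15 for Cxcr3 at 3 and 14 days. Those Cxcr3 values were 0.19 and 0.05 without the covariate. Spleen-labelled Cxcl11 minus Cxcr3 at 1 day was 0.083 with a pseudocount of 5.

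The replicate numbers were not shown to pair the libraries. Deviations of same-numbered libraries had a correlation over 0.1 in 13 of 30 pairs (spleen label) and in 0 of 16 (lymph node label). A fit with the replicate number as a block moved lymph node-labelled Cxcl9 at 3 days past the threshold (0.46, limma adjusted p = 0.0484) and changed no other call of a member.

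Leaving out each library in turn gave these log2 ranges where a call or a sign changed. With the spleen label they were -0.23 to 0.036 for Cxcl9 at 1 day, -0.19 to 0.052 at 14 days and -0.081 to 0.19 from 1 to 14 days. For Cxcl10 they were 0.50 to 0.73 at 1 day and -0.074 to 0.20 from 3 to 14 days. For Cxcr3 they were -0.13 to 0.019 at 14 days and -0.15 to 0.0094 from 1 to 3 days. With the lymph node label they were 0.32 to 0.50 for Cxcl9 at 3 days, past the threshold without 3 day replicate 4, and -0.10 to 0.097 from 1 to 3 days. For Cxcl10 they were -0.27 to 0.064 at 1 day and -0.68 to -0.58 from 3 to 14 days. For Cxcr3 they were -0.043 to 0.13 at 14 days, -0.62 to 0.046 from 1 to 14 days and -0.49 to 0.18 from 1 to 3 days. A group of 2 left with a single library was assumed to vary like the other groups. The difference between labels for Cxcl10 at 3 days was -0.21 to 0.011. Cxcl9 minus Cxcr3 was -0.019 to 0.20, -0.16 to 0.034 and -0.095 to 0.10 at 1, 3 and 14 days (spleen label), and -0.16 to 0.31 at 1 day (lymph node label). Cxcl11 minus Cxcr3 was -0.44 to 0.36 at 1 day (spleen label), and -1.05 to 0.040 and -0.71 to 0.38 at 3 and 14 days (lymph node label).

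With the adipocyte covariate the calls at 1 day in spleen-labelled libraries went from 5 to 9 of 18 interferon gamma targets, from 1 to 7 of 23 lymphocyte genes, from 0 to 4 of 14 myeloid genes, from 2 to 5 of 10 stromal genes and from 1 to 3 of 10 modifiers, and from 16 to 15 of 19 type I targets, from 5 to 4 of 25 upstream signals and from 3 to 2 of 13 other CXC genes, while the share of all genes called went from 16.6% to 21.1%. Counts over all genes depended on the setting. Spleen-labelled libraries had 3030 genes called at 1 day (2182 to 3932 over 11 alternatives), 1013 at 3 days (140 to 4722) and 0 at 14 days with limma (0 to 3). Between durations they had 1 from 1 to 3 days (0 to 36), 1940 from 1 to 14 days (1434 to 3117) and 192 from 3 to 14 days (3 to 3137). Lymph node-labelled libraries had 221 (132 to 540), 226 (0 with the erythroid covariate, to 557) and 144 (2 with that covariate, to 381) against untreated, and 65 (0 to 183), 73 (13 to 385) and 2 (0 to 51) between durations. With an unadjusted p of at most 0.05 and a fold of at least 1.5, the counts in the same order were 1497, 620, 204, 332, 943 and 342 (spleen label) and 894, 615, 630, 550, 779 and 278 (lymph node label).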
